A study of Mus musculus with 2 samples.

Results

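The subject here is the set of 9 genes that carry antigen presentation by MHC class II: H2-Aa, H2-Ab1, H2-Eb1, H2-DMa, H2-DMb1, H2-DMb2, H2-Ob, Cd74 and Ciita. They were found by symbol, 1 row each, among the 32285 genes of the count matrices. Their UMIs (unique molecular identifiers, each marking 1 captured RNA molecule) were followed over cell classes rebuilt from other genes. The study digested mouse aortas, bound the cells to magnetic beads against CD31, an endothelial surface protein, and made 10x Genomics single-cell libraries. Both groups were ApoE-/- mice of C57BL/6 background on a Western diet, which produces atherosclerosis. No further change is named for the group called WT, and whether it carried Cre or received tamoxifen is not given in the sources used here. The group called EC-iCD45KO also carried a tamoxifen-inducible, endothelial-cell-specific deletion of CD45, which is encoded by Ptprc. Age, sex, the Cre line and any pooling of animals are not given there either. Each group is 1 library, so no test between the groups was possible. Every interval below is at 95% and covers counting error only, not the spread between animals.

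MHC class II molecules show peptides from engulfed proteins to CD4+ T cells. An alpha chain (H2-Aa) and a beta chain (H2-Ab1) form the I-A molecule, and H2-Eb1 encodes the beta chain of I-E. C57BL/6 mice lack a working I-E alpha chain, so H2-Eb1 has no normal partner in them. Cd74, the invariant chain, fills the groove until the molecule reaches the endosome. There H2-DM (H2-DMa with H2-DMb1 or H2-DMb2) exchanges the last piece of Cd74 for antigenic peptide, and H2-O (H2-Oa with H2-Ob), known from B cells and some dendritic cells, restrains H2-DM. Ciita is the co-activator that switches the set on. It binds no DNA itself, and acts through factors on the X, X2 and Y boxes of the promoters. Dendritic cells, B cells and macrophages present with class II as a profession, while endothelial cells can be induced to make it by interferon-gamma.

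In the mm10 (GRCm38) annotation of GENCODE M21, 7 of the 9 genes lie in the MHC on chromosome 17. H2-DMb2 (chr17:34143307-34151555) and H2-DMb1 (chr17:34153072-34160230) are neighbours on the plus strand. They are near-identical copies, so reads from one could have been counted for the other or dropped. H2-Ob lies at chr17:34238903-34254414, H2-Ab1 at chr17:34257689-34269419, H2-Aa on the minus strand at chr17:34282744-34287823 and H2-Eb1 at chr17:34305867-34316674. H2-DMa (chr17:34119541-34139101) overlaps Brd2, H2-Eb1 overlaps Gm20513, and Ciita (chr16:10480059-10528418, plus strand) overlaps Dexi, all on the opposite strand. H2-DMa also overlaps CR974462.4 on the opposite and CR974462.3 on its own strand, and no strand setting would separate reads from the latter. Without the strand setting of the counting, reads from the opposite-strand overlaps cannot be told apart either.

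Promoter windows (250 bases before to 50 after the start) were taken from RefSeq on GRCm38.p6 and held 6 of the 9 members. H2-Ab1, Cd74 and Ciita had no entry. The last 150 bases before the start are shown for the 5 members that carry the Y box core GATTGG near the start, because Ciita acts on these boxes. Capitals mark GATTGG and the X2-type box ATGATGC. Both motifs were chosen after these sequences had been viewed.
H2-Aa: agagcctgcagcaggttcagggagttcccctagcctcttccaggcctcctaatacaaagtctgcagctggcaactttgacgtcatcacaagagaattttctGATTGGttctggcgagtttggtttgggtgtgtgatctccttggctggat
H2-Eb1: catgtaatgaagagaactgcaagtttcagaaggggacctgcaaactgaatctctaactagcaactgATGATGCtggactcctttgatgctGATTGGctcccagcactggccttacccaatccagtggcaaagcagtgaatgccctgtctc
H2-DMb1: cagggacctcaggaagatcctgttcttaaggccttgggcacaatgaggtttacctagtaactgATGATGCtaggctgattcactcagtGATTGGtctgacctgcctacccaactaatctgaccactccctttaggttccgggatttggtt
H2-DMb2: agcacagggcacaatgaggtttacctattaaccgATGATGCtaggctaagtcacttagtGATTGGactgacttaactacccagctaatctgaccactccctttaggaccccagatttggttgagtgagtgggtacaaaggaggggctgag
H2-Ob: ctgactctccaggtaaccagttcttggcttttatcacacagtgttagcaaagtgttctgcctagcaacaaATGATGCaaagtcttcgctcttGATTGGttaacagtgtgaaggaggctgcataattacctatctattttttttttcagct
The stretches lie on GRCm38.p6 at chr17:34287824-34287973 (H2-Aa, minus strand), chr17:34305717-34305866 (H2-Eb1), chr17:34153041-34153190 (H2-DMb1), chr17:34145099-34145248 (H2-DMb2) and chr17:34238755-34238904 (H2-Ob), the last 4 on the plus strand. The 2 boxes are 17 bases apart in H2-Eb1, 18 in H2-DMb1, 18 in H2-DMb2 and 15 in H2-Ob. Over all 32851 promoter windows, counting both strands, GATTGG is found in 16.1% and ATGATGC in 2.46%. ATGATGC followed by GATTGG after 5 to 30 bases on the same strand is found in 13 windows (0.0396%), which belong to 12 genes, and 4 of these are the members shown with both. H2-Aa has GATTGG without ATGATGC, and neither motif lies near the start in the 2 H2-DMa windows. Only these exact letters were searched, so other forms of the boxes were not sought. The promoters of H2-DMb1 and H2-DMb2 thus share these letters and their spacing, although the class where each of the 2 genes was highest differed.

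The libraries held 39849 barcodes and 92058043 UMIs (WT) and 30278 barcodes and 88967918 UMIs (EC-iCD45KO), each barcode with at least 500 UMIs, and 340 barcodes occurred in both. After filters, 35302 and 25907 cells were kept. The classes differed widely in size: 5706 and 323 B-like, 3249 and 9094 macrophage-like, 395 and 1168 dendritic-like, 3612 and 4295 EC-like (endothelial), and 2454 and 3152 smooth muscle (SMC-like) cells in WT and EC-iCD45KO. Another 11601 and 3459 cells stayed unnamed. Ptprc, the deleted gene, stood at 288 CPM (UMIs per 1000000 UMIs of the class) in WT and at 115 CPM in EC-iCD45KO EC-like cells, with a log2 ratio of -1.32 (-1.42 to -1.22). Of these cells, 1744 (WT) and 88 (EC-iCD45KO) lay in a subcluster led by immunoglobulin and B-cell genes. In EC-like subclusters not led by markers of another class Ptprc stood at 139 and 36.1 CPM, at -1.94 (-2.17 to -1.72). It was also lower in macrophage-like cells, by a log2 ratio of -0.82 (-0.86 to -0.77), and higher in B-like cells, at 0.76 (0.67 to 0.85), 2 classes to which the deletion is not directed.

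Class II RNA was highest in the professional presenting cells of both libraries. Summed over the 9 genes, dendritic-like cells of WT gave 56521 CPM (56165 to 56879) and those of EC-iCD45KO 59767 CPM (59532 to 60003). B-like cells followed with 34398 CPM (34297 to 34499) and 30843 CPM (30479 to 31210.1). Macrophage-like cells came next with 19563 CPM (19487 to 19639.7) and 26463 CPM (26410.2 to 26516). These 3 classes kept their order in both libraries. Below them the classes ran without a gap, from 11923 CPM in erythroid-like, 10817 in neutrophil-like and 8239 in EC-like cells of WT down to 4526 in SMC-like and 3173 CPM in T/NK-like cells. In EC-iCD45KO the same classes gave 19302, 11142, 7676, 4718 and 3180.4 CPM. In the WT order, the interval of Schwann-like cells (9791 to 10591) overlapped those of lymphatic EC-like (9511 to 10031) and neutrophil-like cells (10568 to 11071), as did those of pericyte-like (3204 to 3596) and T/NK-like cells (3135 to 3211). Erythroid cells and mouse T cells are not known to make class II, yet they were the highest (erythroid-like) and the lowest (T/NK-like) of the classes below the leading 3 in both libraries.

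**Figure D1:**
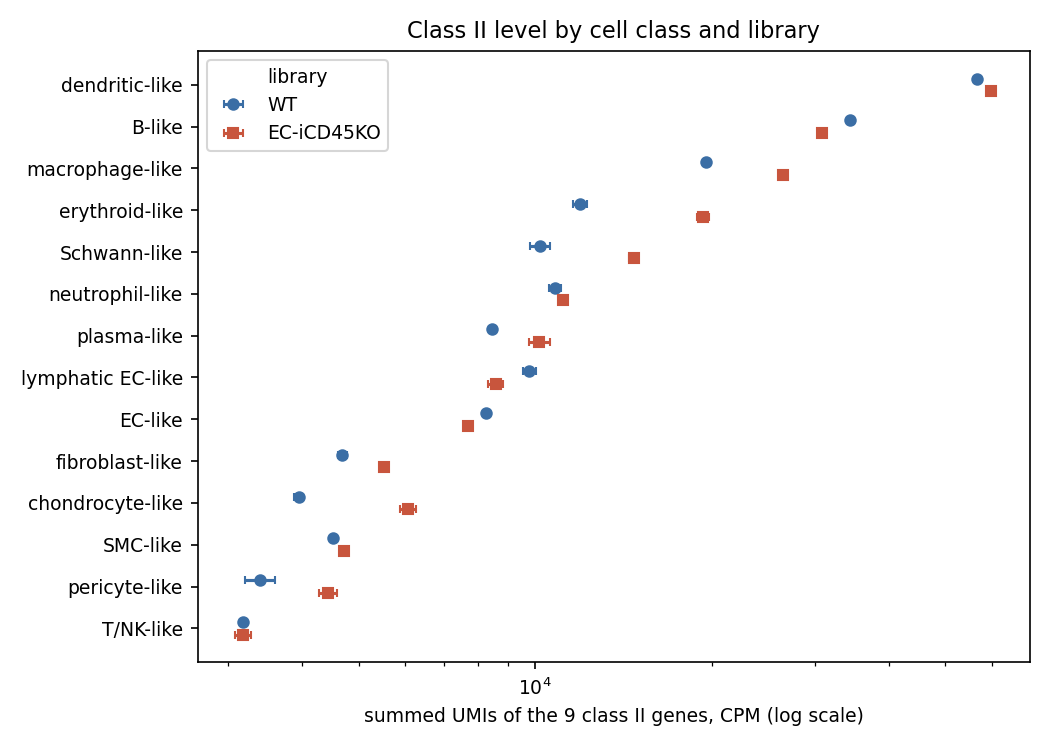
Summed UMIs of the 9 class II genes in CPM (log scale) in 14 cell classes, with circles for the WT library, squares for the EC-iCD45KO library and bars for 95% Poisson intervals. Dendritic-like, B-like and macrophage-like cells lead in both libraries, and T/NK-like cells are lowest, at 3173 and 3180.4 CPM.

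Between the libraries the sum stayed within 2-fold in each of the 14 classes. The log2 ratio of EC-iCD45KO to WT was 0.44 (0.43 to 0.44) in macrophage-like cells, 0.24 (0.21 to 0.27) in fibroblast-like, 0.08 (0.07 to 0.09) in dendritic-like, 0.06 (0.04 to 0.08) in SMC-like, -0.10 (-0.12 to -0.09) in EC-like and -0.16 (-0.18 to -0.14) in B-like cells. Among the smaller classes the ratio was 0.69 (0.64 to 0.75) in erythroid-like, 0.62 (0.57 to 0.67) in chondrocyte-like, 0.53 (0.47 to 0.59) in Schwann-like and 0.38 (0.29 to 0.48) in pericyte-like cells. In erythroid-like, chondrocyte-like and Schwann-like cells class II per UMI of macrophage markers was lower in EC-iCD45KO, as given below. Plasma-like cells gave 0.27, neutrophil-like 0.04, T/NK-like 0.00 and lymphatic EC-like cells -0.19, and the unnamed cells -0.31. The fibroblast-like ratio turned negative under 4 other ways of building the classes (-0.46 to -0.19), and the EC-like and SMC-like signs also depended on the processing.

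The antigen-binding chains were highest in dendritic-like cells, and in EC-iCD45KO macrophage-like cells stood above B-like cells for each of them. H2-Aa, the I-A alpha chain, stood at 9621 CPM (WT) and 11044 CPM (EC-iCD45KO) in dendritic-like cells, at 4547 and 4440.5 CPM in B-like cells and at 3212 and 4626 CPM in macrophage-like cells. In EC-like cells it stood at 1240.2 and 1401 CPM, and in T/NK-like cells at 485 and 572 CPM. H2-Ab1, its beta chain partner, went from 6127 and 6929.6 CPM in dendritic-like through 2215 and 2173 CPM in B-like and 2051 and 2977 CPM in macrophage-like to 748 and 858 CPM in EC-like cells. H2-Eb1, the chain without a partner in this strain, was read with 7955 and 8925 CPM in dendritic-like, 3339 and 3145 CPM in B-like and 2789 and 3979 CPM in macrophage-like cells. For each of these 3 chains the EC-iCD45KO value was the higher one in macrophage-like cells, by log2 ratios of 0.53 (H2-Aa), 0.54 (H2-Ab1) and 0.51 (H2-Eb1). In B-like cells the libraries lay within 0.09 log2 units of each other for all 3.

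Cd74, the invariant chain, gave the most UMIs of the set. It stood at 30881 (WT) and 31149 CPM (EC-iCD45KO) in dendritic-like, 22468 and 19169 CPM in B-like, 10990.2 and 14282 CPM in macrophage-like and 4856 and 4042 CPM in EC-like cells. Its share of all class II UMIs was 65.3% and 62.2% in B-like cells, against 54.6% and 52.1% in dendritic-like and 56.2% and 54.0% in macrophage-like cells. B-like cells thus held more invariant chain per binding chain than the other presenting cells in both libraries.

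Ciita, the co-activator, was thinly captured and was highest in B-like and dendritic-like cells. It stood at 142 and 197 CPM in B-like, 136 and 156 CPM in dendritic-like, and 28.5 and 40.4 CPM in macrophage-like cells. In EC-like cells it stood at 29.0 and 14.7 CPM (230 and 153 UMIs), a log2 ratio of -0.97 (-1.28 to -0.67), just short of 2-fold. In SMC-like cells the step from 16.4 to 7.88 CPM was at -1.06 (-1.45 to -0.68). Both lay at the edge of 2-fold: over the settings tried, the EC-like ratio ran from -1.07 to -0.65 and the SMC-like ratio from -1.42 to -0.75. Ciita was also past 2-fold lower in neutrophil-like (-1.20), Schwann-like (-2.15) and unnamed cells (-1.01), on 25 and 31 UMIs in the first and 13 and 9 in the next. In dendritic-like subclusters not led by markers of another class it was higher, at 49.8 and 131 CPM (16 and 170 UMIs) and 1.39 (0.65 to 2.23). The mix of these cells differed, as a single subcluster gave 30 of 78 in WT and 610 of 701 in EC-iCD45KO. In the whole dendritic-like class the Ciita ratio was 0.19 (-0.03 to 0.42). With each cell thinned to 1000 UMIs, 13.2% of WT and 17.9% of EC-iCD45KO B-like cells had a Ciita UMI, against 2.79% and 1.79% of EC-like and 0.567% and 0.250% of T/NK-like cells. Without thinning these shares were 25.8% and 37.2%, 5.43% and 2.96%, and 1.60% and 1.84%.

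The 2 beta chains of the peptide editor H2-DM were highest in different classes. H2-DMa, its alpha chain, was read in dendritic-like (676 and 607 CPM), B-like (421 and 406 CPM) and macrophage-like cells (239 and 278 CPM). H2-DMb1 was highest in dendritic-like (569.6 and 692 CPM) and macrophage-like cells (201 and 268 CPM), and stood at 148 and 171 CPM in B-like cells. H2-DMb2 was highest in B-like cells (684 and 719 CPM), with 439 and 217 CPM in dendritic-like and 32.0 and 6.86 CPM in macrophage-like cells. H2-Ob, the beta chain of the H2-DM inhibitor, was also highest in B-like cells (433 and 423 CPM), with 115 and 48.2 CPM in dendritic-like and 21.5 and 4.96 CPM in macrophage-like cells. Within B-like cells the interval of neither gene left no change: the log2 ratio was 0.07 (-0.05 to 0.19) for H2-DMb2 and -0.03 (-0.18 to 0.12) for H2-Ob.

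In the other classes compared, these same 2 genes were lower in EC-iCD45KO. In EC-like cells H2-DMb2 stood at 86.7 CPM in WT and at 9.83 CPM in EC-iCD45KO (688 and 102 UMIs), with a log2 ratio of -3.14 (-3.45 to -2.84), and H2-Ob at 66.1 and 6.36 CPM, at -3.38 (-3.77 to -3.01). In SMC-like cells the ratios were -2.80 for H2-DMb2 and -3.20 for H2-Ob, in fibroblast-like cells -2.23 and -2.80, among macrophage-like -2.22 and -2.12, and among dendritic-like cells -1.01 and -1.25. The presenting cells were less uniform when divided. In macrophage-like subclusters not led by markers of another class the ratios were -1.38 and -1.12, and in the subcluster led by resident-macrophage genes -0.99 (-1.56 to -0.41) and -0.32 (-0.95 to 0.36). In dendritic-like subclusters chosen the same way they were -0.22 (-0.59 to 0.17) for H2-DMb2, which lost its call, and -1.17 (-1.86 to -0.47) for H2-Ob. These held 78 and 701 cells, of which 30 and 610 came from the Lyz1 subcluster, so their mix differed between the libraries. In the largest dendritic-like subcluster left out, led by Cd209a and macrophage genes, H2-DMb2 was at -1.43 (-1.69 to -1.17). It ranged from -3.90 to -0.16 in the others left out. A gene is called here when it is past 2-fold with its interval on 1 side of no change. By that rule 2 of the 9 members were lower and 0 higher in EC-like cells, where 3.46% of 10967 genes were lower and 1.59% higher. In SMC-like cells 3 members were lower (background 3.39%) and 0 higher (1.64%), Ciita being the third, a call that 4 of the settings tried end, TMM among them (-0.97). In fibroblast-like cells 2 were lower (3.50%) and 0 higher (2.19%), in macrophage-like cells 2 lower (1.76%) and 0 higher (0.787%), and in dendritic-like cells 2 lower (3.92%) and 0 higher (2.48%). In B-like cells 0 were lower (1.02%) and 0 higher (2.41%). The binding chains went past 2-fold higher in 2 further classes. In pericyte-like cells (79 and 131) H2-Aa was at 1.03 (0.78 to 1.29), H2-Ab1 at 1.40 (1.07 to 1.75) and H2-Eb1 at 1.04 (0.77 to 1.33). In chondrocyte-like cells H2-Eb1 was at 1.09 (0.94 to 1.23). Single cells weighed on these sums. In EC-iCD45KO 1 pericyte-like cell held 979 of 3122 class II UMIs, and 1 chondrocyte-like cell 647 of 3939. Median class II UMIs were 2 and 3 in pericyte-like and 10 and 13 in chondrocyte-like cells. After thinning, the share with at least 5 was not higher in EC-iCD45KO, at 22.1% and 14.2% in pericyte-like and 63.0% and 53.0% in chondrocyte-like cells. Cd74 was at -0.16 (-0.29 to -0.02) in pericyte-like cells.

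The same 2 genes also differed in the libraries as a whole. H2-DMb2 and H2-Ob together made up 1.96% (1.94 to 1.98) of all class II UMIs of the WT library and 0.210% (0.203 to 0.217) of those of EC-iCD45KO, which held fewer B-like cells. In WT the same share was 1.86% in EC-like, 2.10% in SMC-like, 1.87% in fibroblast-like, 2.17% in T/NK-like, 2.17% in chondrocyte-like, 2.09% in erythroid-like and 1.86% in neutrophil-like cells. In EC-iCD45KO it was 0.211%, 0.259%, 0.290%, 0.298%, 0.178%, 0.279% and 0.105% in these classes. The share stood clear of the library-wide one in the presenting cells: 3.25% and 3.70% in B-like, 0.980% and 0.444% in dendritic-like, and 0.274% and 0.0447% in macrophage-like cells. In EC-iCD45KO the intervals of EC-like (0.180 to 0.245), T/NK-like (0.154 to 0.521), chondrocyte-like (0.0715 to 0.366) and erythroid-like cells (0.165 to 0.440) held the library-wide share. Those of SMC-like (0.220 to 0.304), fibroblast-like (0.232 to 0.359), lymphatic EC-like (0.268 to 0.694) and neutrophil-like cells (0.0657 to 0.159) did not. Plasma-like cells were below the library-wide share in WT, at 1.54% (1.42 to 1.68), while several classes, T/NK-like among them at 2.17%, stood above it. In EC-iCD45KO H2-DMb2 and H2-Ob had 11 and 3 of the 11128 class II UMIs of Schwann-like cells. Of the 2314 in plasma-like cells there they had 0 and 1.

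**Figure D2:**
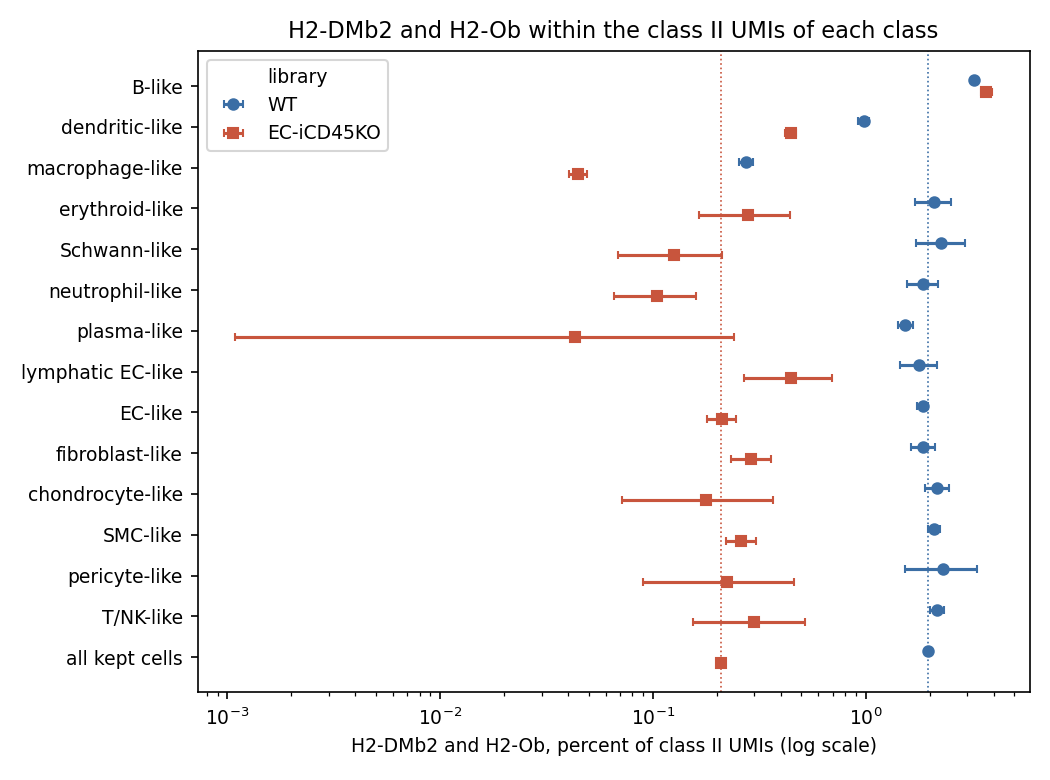
Share of H2-DMb2 and H2-Ob among all class II UMIs (percent, log scale) in 14 cell classes and in all kept cells, with circles for WT, squares for EC-iCD45KO, bars for 95% Clopper-Pearson intervals and dotted lines at the 2 library-wide shares. Most non-presenting classes lie near 1.96% in WT and near 0.210% in EC-iCD45KO, while B-like cells lie at 3.25% and 3.70%.

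Class II was also set beside macrophage RNA. Per UMI of 11 macrophage markers (Lyz2, C1qa, Csf1r and others), all kept cells held 2.06 class II UMIs in WT and 1.08 in EC-iCD45KO. EC-like cells held 2.01 and 1.09, SMC-like 2.24 and 1.14, fibroblast-like 1.80 and 1.16, erythroid-like 1.85 and 1.16, and neutrophil-like cells 1.93 and 1.01. Chondrocyte-like cells held 2.25 and 1.28, and Schwann-like cells 2.31 and 1.08. In erythroid-like, chondrocyte-like and Schwann-like cells the class II sum was thus higher in EC-iCD45KO but lower per macrophage marker UMI. Higher values were found in T/NK-like (3.15 and 1.38), lymphatic EC-like (4.62 and 1.29) and pericyte-like cells (3.76 and 3.36). Macrophage markers were seen in all these classes, with all 11 detected and a sum of 4094 and 7059 CPM in EC-like and 2022 and 4156 CPM in SMC-like cells. In EC-like cells the class II level was highest in the shallowest droplets, with 12956 and 15142 CPM at 500 to 1000 UMIs against 5797 and 3954 CPM at 4000 or more, and SMC-like cells gave 12883 and 10330.3 CPM against 1837 and 2832 CPM. Chondrocyte-like and fibroblast-like cells were also lower in the deepest than in the shallowest droplets of both libraries. T/NK-like cells first fell, from 3661 and 3095 CPM in the shallowest droplets to 1777 and 1495 CPM at 2000 to 4000 UMIs. They were highest in the deepest droplets (255 and 54 cells), at 10076 and 7789.7 CPM. Medians there were 7 and 4 class II UMIs against means of 56.0 and 47.4. Neutrophil-like cells went from 9526 to 15769 CPM in WT and from 18951 to 17888 CPM in EC-iCD45KO between the same ends. At 1000 to 2000 UMIs they stood lower, at 7369 and 7312 CPM. How much of the class II signal of these classes came from RNA of other cells was not tested.

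Per cell, the classes differed in shape as well as level. B-like cells were uniform, with medians of 71 (WT) and 80 (EC-iCD45KO) class II UMIs and 5th percentiles of 21 and 31. Macrophage-like cells were spread over the whole range, with medians of 13 and 25 and 95th percentiles of 353 and 499. T/NK-like cells had medians of 2 and 2. After thinning to 1000 UMIs, at least 5 class II UMIs were found in 99.9% of WT and all 307 EC-iCD45KO B-like cells, in 52.5% and 68.3% of macrophage-like and 9.90% and 7.50% of T/NK-like cells.

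Macrophage-like cells separated into subclusters with very different class II. The 1 led by resident-macrophage genes (Ccl8, Mrc1, Retnla, called macrophage-like 3, 593 and 1685 cells) was the highest of the 4 described here, with 48236 CPM in WT and 59031 CPM in EC-iCD45KO. Its cells had medians of 172 and 305 class II UMIs, and 91.0% and 97.1% held at least 5 after thinning. The monocyte-derived subcluster (Chil3, Ly6c2, macrophage-like 2, 744 and 1555 cells) had 18847 and 21791 CPM. The Trem2-type foamy subcluster (Gpnmb, Fabp5, Mmp12, macrophage-like 4, 222 and 723 cells) had 10197 and 16347 CPM. The fourth, led by Nes, Myo16 and Dcstamp (macrophage-like 1, 1095 and 1240 cells), was the lowest with 8559 and 5402 CPM, and its cells had medians of 5 and 7 class II UMIs. These 4 subclusters stood in the same order in both libraries. Gm20513, which overlaps H2-Eb1 on the other strand and was not left out of the clustering, was among the leading genes of the resident subcluster.

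Ciita kept to this order too, with 71.4 and 96.1 CPM in the resident, 31.5 and 42.3 CPM in the monocyte-derived, 9.20 and 14.4 CPM in the foamy and 8.64 and 4.47 CPM in the Nes subcluster. In WT the foamy and Nes values rest on 12 and 43 UMIs and lie too close to be ordered. In the resident subcluster H2-DMb2 and H2-Ob were 0.0590% and 0.0301% of class II UMIs, and H2-DMb1 0.921% and 0.922%. Between the libraries the class II sum was higher in EC-iCD45KO by a log2 ratio of 0.29 (0.28 to 0.30) in the resident, 0.21 (0.19 to 0.22) in the monocyte-derived and 0.68 (0.65 to 0.71) in the foamy subcluster, and lower by -0.66 (-0.68 to -0.65) in the Nes subcluster. With subclusters drawn at a finer resolution these became 0.19, 0.02, 0.08 and 0.37, so the last of them turned direction. The libraries also filled the class differently: the largest macrophage-like cluster was cluster 6 in WT (1054 cells) and cluster 4 in EC-iCD45KO (3449 cells). A subcluster led by smooth muscle genes held 215 and 3797 of the cells. In the subclusters not led by markers of another class (2654 and 5203 cells) the log2 ratio was 0.45, against 0.44 in the whole class.

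The dendritic-like class was filled differently by the libraries. Its largest subcluster (dendritic-like 0, led by Lyz1 and Il22ra2) held 30 cells of WT and 610 of EC-iCD45KO, at median depths of 974 and 837 UMIs. Its class II sum was 22589 and 47045 CPM, past 2-fold at a log2 ratio of 1.06 (0.98 to 1.14), and Ciita had 0 and 71 UMIs there. Macrophage markers stood at 26144 and 11401 CPM in these cells, and their part in the difference was not tested. The other subclusters described here lay nearer to no change. Cells led by Cd209a and macrophage genes (dendritic-like 1, 124 and 292 cells) gave 67491 and 69834 CPM, with medians of 316 and 452 class II UMIs. Mature cells led by Fscn1 and Ccr7 (dendritic-like 5, 22 and 58 cells) gave 50745 and 47451 CPM, and cells led by Xcr1 and Clec9a (dendritic-like 7, 8 and 18 cells) gave 51518 and 47003 CPM. Cells led by Siglech (dendritic-like 6, 18 and 15 cells) gave 16951 and 20298 CPM. A UMI marks 1 molecule whatever the gene's length. In the mature cells H2-DMb2 had 46 and 168 UMIs and H2-DMb1 18 and 65, while in the Cd209a cells H2-DMb2 had 234 and 279 and H2-DMb1 507 and 1837. The copy with more UMIs thus differed between these subclusters in both libraries.

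**Figure D3:**
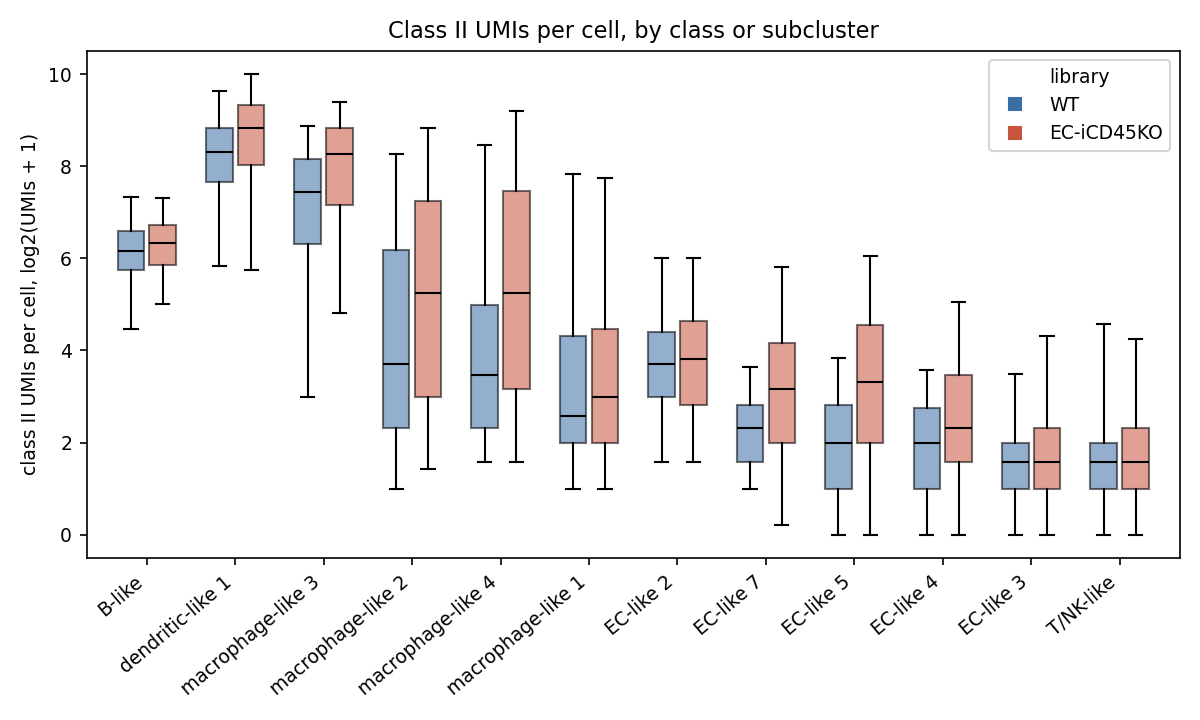
Class II UMIs per cell, as log2(UMIs + 1), in 12 classes or subclusters of the WT and EC-iCD45KO libraries. Boxes run from the 25th to the 75th percentile with a line at the median, and whiskers from the 5th to the 95th; B-like cells are narrow around medians of 71 and 80, the macrophage-like 2 and 4 subclusters are broad, and EC-like 5 has medians of 3 and 9.

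Endothelial cells, to which the deletion is directed, stood between T/NK-like and erythroid-like cells in class II level, 2 classes that should lack it. After thinning, 57.4% (55.4 to 59.3) of WT and 52.7% (50.8 to 54.5) of EC-iCD45KO EC-like cells held at least 5 class II UMIs, a difference of -4.70 percentage points (-7.39 to -2.01). The interval held 0 without doublet removal, at -2.04 (-4.63 to 0.548), and in subclusters not led by markers of another class, at -2.82 (-6.35 to 0.722). Without thinning the shares were 72.5% and 66.8%. Erythroid-like cells, at 82.6% and 67.2%, were above both, with median depths of 941 and 1198 UMIs against 1386 and 1272 in EC-like cells. Of thinned EC-like cells with no UMI of 114 leukocyte markers, of which there were 50 and 59, 4.00% (0.488 to 13.7) and 11.9% (4.91 to 22.9) held at least 5 class II UMIs. Much of the class lay in 2 subclusters led by genes of other cells: EC-like 1, led by immunoglobulin and B-cell genes (1744 and 88 cells), with 13087 and 7265 CPM, and EC-like 0, led by Lyz2, Ccl2 and Chil3 (134 and 2073 cells), with 13726 and 16579 CPM. In the subclusters not led by markers of another class (1578 and 1815 cells) class II stood at 4093 and 3165 CPM.

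These endothelial subclusters differed from each other. Capillary cells (Timp4, Gpihbp1, Car4, EC-like 3, 434 and 527 cells) were lowest, at 1322 and 1369 CPM, with medians of 2 and 2 class II UMIs, a log2 ratio of 0.05 (-0.05 to 0.15) and 4.42% and 6.97% of cells with at least 5 UMIs after thinning, where T/NK-like cells had 9.90% and 7.50%. Arterial-type cells led by Sfrp1 and Mdk (EC-like 2, 680 and 323 cells) were the highest of the larger subclusters, at 7689 and 7712 CPM with a ratio of 0.00 (-0.04 to 0.05). Cells led by Ackr1, Sele and Selp (EC-like 4, 266 and 694 cells) went from 1765 to 2421 CPM, at 0.46 (0.37 to 0.54). Tip-type cells led by Pgf, Notch3 and Prnd (EC-like 7, 70 and 84 cells) went from 1988 to 3106 CPM, at 0.64 (0.48 to 0.81). A tip-type group led by Igfbp5 and Esm1 (EC-like 10) had 8 and 53 cells, 15196 and 6021 CPM and a ratio of -1.34. EC-like 7, whose 10 leading genes hold 2 endothelial and 2 pericyte markers, did not move as one: H2-Aa was at 1.19 (0.75 to 1.65), H2-Ab1 at 1.44 (0.87 to 2.05) and Cd74 at 0.33 (0.11 to 0.56), while H2-DMb2 had 7 and 2 UMIs and H2-Ob 7 and 0. In cells without a macrophage marker UMI the ratio of the sum was -0.49 (-1.36 to 0.31) in EC-like 7 (13 and 8 cells), 0.17 (-0.11 to 0.46) in EC-like 4, -0.06 (-0.33 to 0.20) in EC-like 3 and -1.20 (-1.92 to -0.56) in EC-like 2 (67 and 6 cells). With finer subclusters EC-like 4 went to 0.07 and EC-like 7 to 0.57.

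The subcluster with the widest difference was EC-like 5, an arterial type led by Klk10, Gkn3 and Cytl1, with 98 cells in WT and 134 in EC-iCD45KO at like median depths of 2879 and 2826 UMIs. It was singled out after its values were seen. Its class II sum was 1569.5 CPM (469 UMIs) in WT and 4728 CPM (2353 UMIs) in EC-iCD45KO, which is a log2 ratio of 1.59 (1.45 to 1.74). Per cell the median went from 3 to 9 class II UMIs and the 75th percentile from 6 to 22.5. After thinning, 7.95% (3.26 to 15.7) and 41.9% (33.1 to 51.1) of its cells held at least 5. The difference was thus seen in the median and in the share of cells, not in the sum alone.

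In EC-like 5 the 6 chains with at least 5 UMIs in each library were all higher in EC-iCD45KO. Cd74 stood at 827 and 2669 CPM, with a log2 ratio of 1.69 (1.49 to 1.89). H2-Aa went from 278 to 764 CPM, at 1.46 (1.11 to 1.82), H2-Eb1 from 204 to 633 CPM, at 1.63 (1.23 to 2.05), and H2-Ab1 from 207 to 438 CPM, at 1.08 (0.67 to 1.51). The editor chains had few UMIs in WT: H2-DMa had 7 and 55, at 2.24 (1.10 to 3.62), and H2-DMb1 5 and 48, at 2.53 (1.21 to 4.21). Ciita had 1 and 4 UMIs, H2-DMb2 had 1 and 2, and H2-Ob had 2 and 3, too few to compare. Of the 8 members at 5 CPM or more, 6 were called higher and 0 lower, where 1.94% of 10224 genes were higher and 2.62% lower.

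Macrophage markers went from 659 to 1011 CPM with all 11 detected in both libraries. Dendritic-cell markers went from 83.7 to 111 CPM, with Flt3, Xcr1 and Ccl22 at 0 in both, and B-cell markers from 917 to 591 CPM, of which 703 and 539 CPM were Ebf1. Per macrophage marker UMI the subcluster held 2.38 class II UMIs in WT and 4.68 in EC-iCD45KO, where all kept cells held 2.06 and 1.08 and EC-like 10 held 3.24 and 3.77. A class II level of 4728 CPM is close to the 4718 CPM of SMC-like cells, which carried 4156 CPM of macrophage markers. In its cells without a macrophage marker UMI (25 and 13 cells) class II stood at 938 and 1882 CPM, a log2 ratio of 1.0 (0.53 to 1.48), and with finer subclusters the ratio was 1.21. Ptprc stood at 33.5 and 28.1 CPM in the subcluster (10 and 14 UMIs), a log2 ratio of -0.25 (-1.53 to 1.08), so a drop of the deleted gene was not detectable there at this depth. The part that RNA of other cells plays in this difference was not tested, and with 1 library a group the animal and the genotype cannot be told apart.

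**Figure D4:**
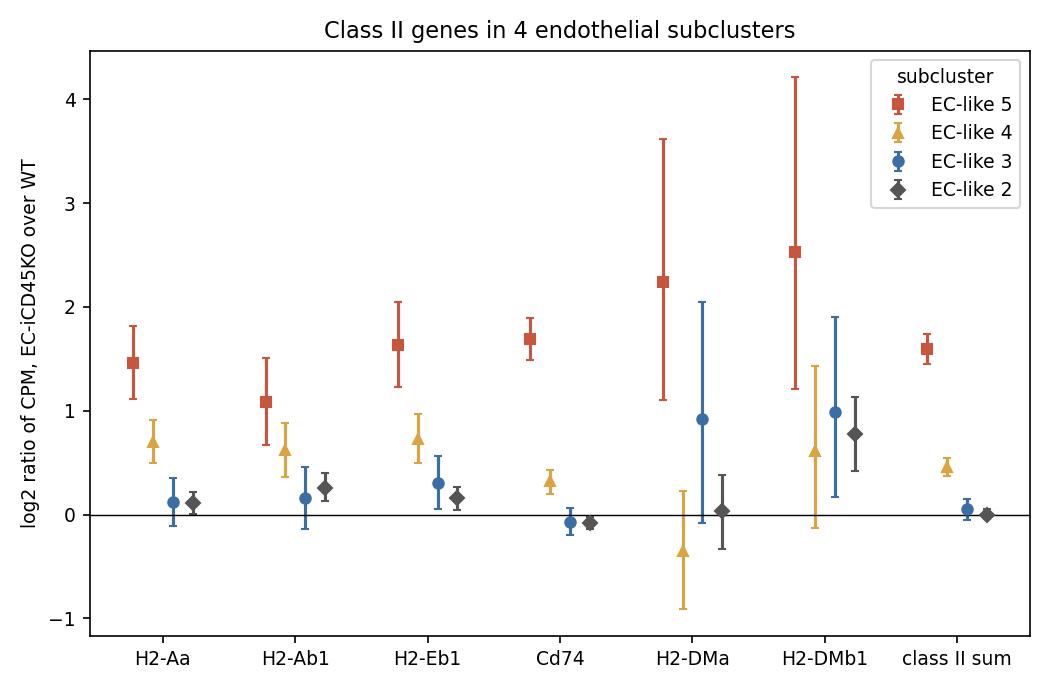
Log2 ratio of CPM, EC-iCD45KO over WT, for 6 class II genes and the class II sum in 4 endothelial subclusters, with bars for 95% exact binomial intervals. Of the 4 drawn, EC-like 5 (squares) is highest for each gene, with a sum at 1.59; EC-like 7, not drawn, has H2-Ab1 at 1.44, above the 1.08 of EC-like 5, while EC-like 2 and EC-like 3 lie at 0.00 and 0.05 for the sum.

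Of the pathway genes outside the set, 0 were called in EC-like 5. Of 12 class I presentation genes measured there, 0 were called in either direction, and the median log2 ratio was -0.17 against -0.05 over all genes. B2m, the light chain of class I, stood at 2664 and 2739 CPM, and H2-K1, a class I heavy chain, at 2748 and 2592 CPM. Of 7 genes of the interferon-gamma input, 6 were measured and 0 called, with Irf1, a transcription factor of the interferon response, at 261 and 193 CPM. The 7 promoter factors (Rfx5, Rfxap, Rfxank and the NF-Y and Creb1 genes) gave 0 calls and a median of 0.07. The 7 lysosomal enzymes gave 0 calls and a median of 0.15, with Ctss, which cuts Cd74, at 87.0 and 131 CPM.

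In the EC-like class as a whole 3.46% of all genes were lower and 1.59% higher, and the pathway lists outside the members are set beside these shares. Both partners outside the set that were measured, H2-Oa, the alpha chain of H2-O, and H2-Eb2, were lower, from 47.5 to 3.76 CPM and from 25.5 to 2.31 CPM. In B-like cells H2-Oa stood at 300.4 and 265 CPM. Of 7 lysosomal enzymes 0 were called, with a median of 0.40: Ctss went from 633 to 974 CPM and Ctsb from 875 to 1294 CPM, with macrophage markers at 4094 and 7059 CPM. Of 7 promoter factors 1 was lower, Rfx5, at 8.32 and 3.37 CPM. Of 5 co-stimulation genes measured 1 was lower, Icosl, at 11 and 4.82 CPM. Cd4, the T-cell co-receptor for class II, stood at 7.56 and 2.80 CPM and was the 1 gene of its list measured, called lower. The interferon-gamma input (6 measured) and the turnover genes (3 measured) gave 0 calls. Of 12 class I genes 0 were called.

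In macrophage-like cells, where the class II sum was higher in EC-iCD45KO, both partners outside the members were called lower, H2-Oa at -2.12 and H2-Eb2 at -1.62. Of all 9527 genes counted there, 1.76% were lower and 0.787% higher. The class I list had 0 calls and a median of -0.21, against -0.04 over all genes. Psmb8, an immunoproteasome subunit, stood at 353 and 279 CPM and Tap1, a peptide transporter chain, at 57.4 and 35.8 CPM. B2m went the other way, from 2030.4 to 2519.8 CPM. The lysosomal list had 0 calls and a median of 0.06. March1, the ligase that removes class II from the surface, stood at 99.7 and 91.4 CPM, and Cd86, a co-stimulator, at 375 and 367 CPM. The 5 co-stimulation genes measured gave 0 calls and a median of -0.34.

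The genes most like class II across cell classes were sought by the Pearson correlation of log2(CPM + 1) with the sum of H2-Aa, H2-Ab1, H2-Eb1 and Cd74, over 14 classes in 2 libraries (28 points, 11342 genes). The points share libraries, depth and the RNA mix described above, so the values are a description. Cd86 led with 0.97, then Ifi30, the lysosomal thiol reductase, with 0.95, Unc93b1 with 0.91, Gm6377, Pld4 and Irf5 with 0.90, and Cd83 and Nuak2 with 0.89. Of the members outside the sum, H2-DMb1 had 0.95, H2-DMa 0.93 and Ciita 0.84, while H2-DMb2 had 0.46 and H2-Ob 0.44. The last 2 are thus the members that least followed the set.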

How the data were processed

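Single-cell RNA was measured in 2 libraries, 1 per group. The deposited matrices hold whole-number UMI counts per gene and barcode, written by Cell Ranger 7.1.0 on mm10, per the submitters' processing notes. Annotation, intron counting and strand are not given in the sources used here. Barcodes were kept from 300 detected genes up, with mitochondrial UMIs of 10% or less. Scrublet (scanpy 1.11.5) marked 1 and 0 doublets by its own threshold. These calls were not used, and the 10% of highest scores were removed instead, a choice made after seeing the data. Cells were clustered without the members, the pathway genes and Ptprc (2000 variable genes, 30 components, 20 neighbours, leidenalg 0.10.2 at resolution 1, subclusters at 0.5). Clusters were named from 18 marker lists, with thresholds set after the data were seen, and a cluster or subcluster led by another class's markers was left unnamed or apart.

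UMIs were summed per class and library and divided by all UMIs of the class (CPM). Sums carry exact Poisson, shares Clopper-Pearson, ratios exact conditional binomial and differences of shares Newcombe intervals. Shares of cells were taken after thinning to 1000 UMIs: of EC-like cells 2505 (WT) and 2740 (EC-iCD45KO) were deep enough. Called genes were past 2-fold with the interval on 1 side of no change, and counts of called genes cover genes whose 2 libraries average 5 CPM or more. No fold is given where both groups had 3 UMIs or fewer. The intervals were tested only on counts simulated with the counting error that they assume. Spread between cells or animals was not simulated.

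All 9 members, the genes of the pathway lists and the 8 genes most like the set were named. Members, lists and markers were chosen with earlier results of these data known, and the motifs after the sequences were viewed. Tools were Python 3.11.15 with pandas 2.3.3, scipy 1.17.1, numpy 2.4.6 and matplotlib 3.10.9 and, for TMM, edgeR 4.0.16 in R 4.3.3. Alternatives were other cell filters, no doublet removal, resolution 2, TMM, a reduced total, means of single cells, equal cluster weights, other thinning and no minimum. Added after seeing the data were subclusters whose 10 leading genes hold no more markers of another class than of their own, finer subclusters and cells without macrophage markers. Some items are not reported here.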

Additional observations from a re-analysis of the deposited data

Results flagged for a closer look

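The class II sum moved in opposite directions between cell classes, as the log2 ratio of EC-iCD45KO to WT was 0.44 in macrophage-like, 0.24 in fibroblast-like, 0.08 in dendritic-like and 0.06 in SMC-like cells, against -0.10 in EC-like and -0.16 in B-like cells. These signs depend on the processing: the EC-like ratio was 0.13 without doublet removal and 0.22 as a mean of single cells, the SMC-like ratio -0.14 as a mean of single cells, and the fibroblast-like ratio -0.46 to -0.19 under 4 settings. Among macrophage-like subclusters it was 0.21 in the monocyte-derived (2), 0.29 in the resident (3) and 0.68 in the foamy subcluster (4), against -0.66 in the Nes subcluster (1). With finer subclusters these became 0.02, 0.19, 0.08 and 0.37, so that the Nes value turned direction. With 1 library a group these differences between classes were not tested. Cells that could not be named, and so belong to no described cell class, also held class II, at 14918 CPM in WT and 12035 CPM in EC-iCD45KO.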

How the results depend on the processing

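Log2 ratios of the class II sum are given with counting error only, and most moved by more than it; the cause was not tested. The EC-like ratio of -0.10 became -0.29 with a stricter and -0.15 with a looser cell filter, 0.13 without doublet removal, -0.12 at Leiden resolution 2, -0.06 with TMM, -0.13 with a total without mitochondrial, ribosomal protein, haemoglobin and immunoglobulin genes, 0.22 as a mean of single cells and -0.37 in subclusters not led by markers of another class. In the same order of settings, the SMC-like ratio of 0.06 became 0.42, 0.23, 0.61, 0.11, 0.15, 0.03 and -0.14, and with clusters weighted equally -0.06. The fibroblast-like ratio of 0.24 became -0.37, -0.30, -0.19 and -0.46 under the first 4 settings, 0.32 with TMM and 0.48 as a mean of single cells. The macrophage-like ratio of 0.44 stayed positive under every setting run, with 0.41 (both filters), 0.43 (no doublet removal and resolution 2), 0.49 (TMM), 0.48 (mean of single cells) and 0.45 (subclusters not led by markers of another class). The B-like ratio of -0.16 became -0.25 with TMM and -0.12 as a mean of single cells. The dendritic-like ratio of 0.08 became 0.12 with the stricter filter, 0.18 with TMM, 0.06 with the reduced total, -0.02 as a mean of single cells and 0.34 in subclusters not led by markers of another class. The difference in the share of EC-like cells with at least 5 class II UMIs, -4.70 points, became -7.64 with the stricter filter and -8.47 with thinning to 2000 UMIs, but -2.04 (-4.63 to 0.548) without doublet removal and -2.82 (-6.35 to 0.722) in subclusters not led by markers of another class, where the intervals hold 0. H2-DMb2 ranged from -3.87 to -2.75 and H2-Ob from -3.47 to -3.10 in EC-like cells, while H2-Aa (-0.21 to 0.50) and Cd74 (-0.48 to 0.04) changed sign. With no minimum and 0.5 CPM added, 402 genes were higher and 842 lower in EC-like cells, against 174 and 380, and 206 and 387 in macrophage-like cells, against 75 and 168. No paired analysis was possible because there is 1 library a group, so leaving out a replicate was not possible either. Depth limits H2-Ob (66 UMIs), H2-DMb2 (102) and Ciita (153) in EC-like cells of EC-iCD45KO.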
